A study of Mus musculus with 10 samples.

Results

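Hrk, Bbc3, Bcl2l11, Bid, Bad, Bax, Bak1, Bcl2, Bcl2l1 and Mcl1 encode proteins of the Bcl2 family, which sets whether mitochondria release the factors that start apoptosis. These 10 genes, of 34254 features counted in each library, were selected on measured values: the high level of Hrk in injured retinal ganglion cells (RGCs) was already known. Their values between conditions are therefore a description, and no test was run on them. All 10 passed the filter on low counts.

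RGCs were profiled by droplet-based single-cell RNA sequencing in 10 libraries, of which 6 came from uninjured retinas and 4 from injured ones, taken 2 weeks after optic nerve crush (ONC), which injures RGC axons. The mice were 129S1/SvImJ wild-type animals of both sexes at 12 weeks of age (P84), and the labels give no other treatment for either group. Cells from 10 retinas were pooled in each batch, macrophages and, by the paper's methods but not the labels, amacrine cells were depleted, RGCs were captured with an antibody against Thy1, and 6000 cells per batch were loaded. The paper names an earlier reagent kit, another sequencer and an earlier Cell Ranger version than the labels, which name Cell Ranger 7.0.1.

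The deposited values are UMI counts, without normalization, of 1683 uninjured and 1609 injured RGCs. The files hold more injured RGCs than the paper's methods state, and the same number of uninjured ones. UMIs are tags by which copies of 1 RNA molecule are counted only 1 time. Uninjured 1 to 6 held 98, 103, 363, 651, 267 and 201 cells with 2839693, 3423989, 12673923, 23180399, 5686605 and 4674981 UMIs. Injured 1 to 4 held 338, 273, 527 and 471 cells with 5934728, 4698799, 8860536 and 6275218 UMIs. Cells were deeper in every uninjured library, where the median was 20437 to 34337 UMIs per cell, than in every injured library, where it was 11257 to 14695.

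Several libraries stood apart or resembled each other. Injured 3 and 4 shared 421 cell barcodes, against at most 1 in all other pairs. They were therefore averaged to 1 sample, called injured 3/4, which left 6 uninjured and 3 injured samples, and 1188 injured cells when each shared barcode is counted 1 time. The squared difference in gene counts between injured 3 and 4, in units of counting noise, was 0.954, near the value of 1 that counting noise alone would give. It was 1.75 for uninjured 1 and 2, 1.81 for uninjured 3 and 4, 1.44 for uninjured 5 and 6, and 2.11 for injured 1 and 2, against 3.46 to 16.0 for other uninjured pairs. Samples within a condition were thus less independent than their number, and p-values given here for other genes measure only the spread between these samples.

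Libraries also differed in Xist, in a reporter and in Malat1. Xist, a transcript of female cells, was detected in 62.1% of injured 1 cells and 67.4% of injured 2 cells. In injured 3 and 4 its shares were 0.569% and 0.212%, and in uninjured libraries 0.461% or less, although the labels give both sexes for every batch. The reporter mCherry, which the labels do not mention, had UMIs in 7.99%, 15.0%, 86.0% and 84.3% of the cells of injured 1 to 4 and in no uninjured cell. The paper's methods describe viruses that express mCherry, alone as a control or with shRNAs, and do not say whether the retinas of these libraries received one. Malat1, a nuclear RNA, took 6.09% to 8.01% of the UMIs of injured libraries and 1.72% to 4.88% of those of uninjured libraries. Between libraries, depth, Malat1 share and mCherry cannot be told apart from condition.

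Apoptosis through mitochondria starts when the effector proteins Bax and Bak open pores in the outer membrane and cytochrome c escapes. Protective members such as Bcl2, Bcl-xL (encoded by Bcl2l1) and Mcl1 hold the effectors in check, and BH3-only proteins bind protective members or effectors and tip the balance towards death. In RGCs, axon injury starts a kinase cascade that ends in transcription of BH3-only genes, and loss of Bax protects RGC bodies from crush.

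The stretch that the family has in common is the BH3 helix, which sits in a groove of the protective proteins. It is shown here because it is the part by which the 5 BH3-only members resemble the rest of the family. Each line gives 30 coding bases, 5′ to 3′ on the coding strand in the GRCm39 (mm39) genome, and capitals mark the codons of the conserved leucine and aspartate.

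Hrk: cggCTGcaggcgctgggcGACgagctgcac
Bbc3: cagCTGcggcggatggcgGACgacctcaac
Bcl2l11: gagCTGcggcggatcggaGACgagttcaac
Bax: tgtCTCcggcgaattggaGATgaactggac
Bcl2l1: gcgCTGagagaggcaggcGATgagtttgaa
Mcl1: accCTGcggcgcgtgggcGACggcgtgcag

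The Hrk stretch lies at chr5:118307953-118307982 on the forward strand, in exon 1 of 2. The Bbc3 stretch lies at chr7:16047695-16047724 (forward, exon 3 of 4) and that of Bcl2l11 at chr2:127989067-127989096 (forward, exon 3 of 4). The Bax stretch lies at chr7:45115421-45115450 (reverse, exon 3 of 6), that of Bcl2l1 at chr2:152671617-152671646 (reverse, exon 2 of 3) and that of Mcl1 at chr3:95566744-95566773 (forward, exon 1 of 3). The stretches were found with a pattern of 8 codons that runs from the leucine codon to a hydrophobic codon after the aspartate. Each of the 10 members matched it in 1 place, and 580 of 21593 canonical mouse coding sequences (2.69%) held it. Bbc3 and Bcl2l11 shared 20 and 19 of the 30 bases with Hrk, Mcl1 and Bax 18 and 17, Bid, Bad and Bcl2l1 16, Bak1 14 and Bcl2 11.

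Hrk encodes Harakiri, a BH3-only protein that binds Bcl2 and Bcl-xL, and its gene (ENSMUSG00000046607.7) spans chr5:118302713-118327543. Its level in CPM (counts per 1000000 UMIs, scaled between samples by TMM factors) had a lowest value of 0, a median of 0.808 and a highest value of 1.35 in the 6 uninjured samples. It was 233, 238 and 290 CPM in injured 1, injured 2 and injured 3/4, the order in which injured values are given from here on. The 3 injured samples lay far above all uninjured samples, and uninjured 2 and 6 held no Hrk UMI. The means were 0.708 ± 0.595 CPM (SD, n = 6) and 253 ± 31.8 CPM (SD, n = 3), a ratio of 358, and the log2 fold change was 8.35 (SE 0.33). In all, 42 Hrk UMIs were counted in 33 of 1683 uninjured cells, with at most 4 in a cell. In injured libraries 6708 were counted in 1405 of 1609 cells, with at most 30 in a cell. Counts of injured cells, here and below, include each barcode that injured 3 and 4 share in both libraries. A summed count cannot tell fewer cells with a transcript from less RNA per cell, so levels are followed by counts over cells further on.

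Bcl2l11 encodes Bim, a BH3-only protein that binds all protective members and activates Bax. Its level was 2.04 to 5.05 CPM in uninjured samples, with a median of 3.34 CPM, and 119, 130 and 128 CPM in injured samples. The injured values lay close together and far above the uninjured ones. The means were 3.49 ± 1.06 CPM (SD, n = 6) and 126 ± 6.21 CPM (SD, n = 3), a ratio of 36.0, with a log2 fold change of 5.24 (SE 0.18). Bbc3 encodes Puma, a BH3-only protein that p53 and other stress pathways induce. Its level was 6.32 to 17.3 CPM in uninjured samples, with a median of 13.2 CPM, and 60.2, 55.5 and 96.0 CPM in injured samples. Injured 3/4 had the highest level of Bbc3, and the groups did not overlap. The means were 12.3 ± 4.75 CPM (SD, n = 6) and 70.6 ± 22.2 CPM (SD, n = 3), a ratio of 5.74, with a log2 fold change of 2.59 (SE 0.31).

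The other BH3-only members did not separate the conditions. Bid links death receptors to mitochondria once caspase 8 has cleaved it. Its level was 2.36 to 4.53 CPM in uninjured samples, with a median of 3.62 CPM, and 1.40, 1.35 and 3.76 CPM in injured samples. Injured 1 and 2 lay below all uninjured samples and injured 3/4 among them (log2 fold change -0.64, SE 0.38). With injured 1 and 2 left out the change was 0.10, with injured 3 and 4 left out -1.33 and without cells with mCherry -1.34. Bad binds Bcl-xL unless it is phosphorylated and held by 14-3-3 proteins. Its level was 33.7 to 90.9 CPM in uninjured samples, with a median of 44.8 CPM, and 34.7, 42.9 and 31.4 CPM in injured samples. Uninjured 5 and 6, at 79.1 and 90.9 CPM, stood above the other samples, and the remaining uninjured values overlapped the injured ones (log2 fold change -0.59, SE 0.32). The change was -0.19 in libraries 1 to 4, -0.05 in cells where Malat1 took 3 to 5% of all UMIs and -0.79 with injured 1 and 2 left out. Bid overlaps Bcl2l13, and Bad overlaps Gpr137, each on the opposite strand, so their counts rest on the strand of the reads.

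**Figure D1:**
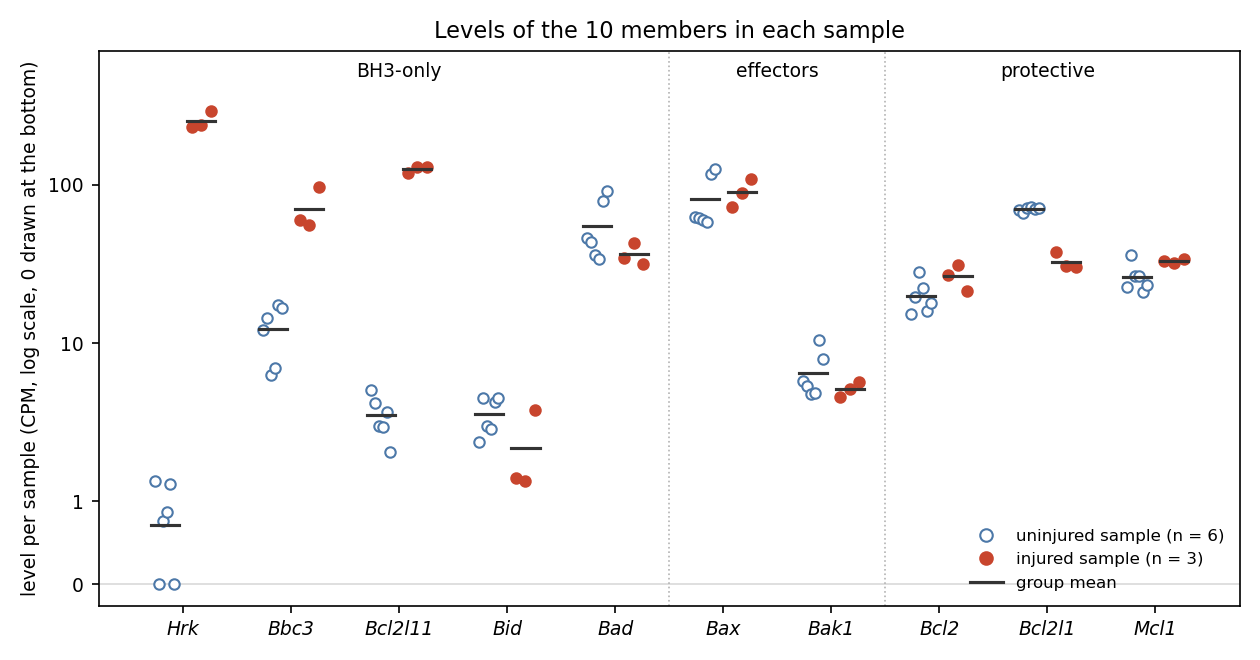
Levels of the 10 members (CPM, log axis, with 0 drawn at the bottom) in 6 uninjured samples (open points) and 3 injured samples (filled points), with group means as lines. Hrk, Bcl2l11 and Bbc3 lie higher and Bcl2l1 lower in all 3 injured samples, and the other 6 members overlap between conditions.

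The effectors overlapped between conditions. Bax had levels of 57.9 to 126 CPM in uninjured samples, with a median of 62.0 CPM, and 72.3, 88.3 and 108 CPM in injured samples. Its uninjured levels fell into 2 sets, 57.9 to 62.7 CPM in uninjured 1 to 4 and 117 and 126 CPM in uninjured 5 and 6, and the injured samples lay between these sets. The log2 fold change was 0.16 (SE 0.28) over all samples, 0.64 when libraries 1 to 4 of each condition were compared, and -0.27 when injured cells with mCherry were left out. Whether Bax was higher or lower after crush thus turned on which libraries and cells were compared. Bak1, the other effector, had levels of 4.74 to 10.5 CPM in uninjured samples, with a median of 5.53 CPM, and 4.55, 5.16 and 5.64 CPM in injured samples. Uninjured 5 and 6 again had the highest levels, 10.5 and 7.93 CPM, and the change was -0.32 (SE 0.29) over all samples, 0.07 in libraries 1 to 4 and -0.65 in cells thinned to 8000 UMIs.

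Among the protective members, Bcl2l1 alone separated the conditions. It encodes Bcl-xL, a membrane protein that binds Bax and most BH3-only proteins. Its level was 66.4 to 72.1 CPM in uninjured samples, with a median of 71.0 CPM, and 37.3, 30.8 and 30.1 CPM in injured samples. All 6 uninjured samples lay within 10% of each other and above every injured sample, and unlike Bax and Bad the gene did not set uninjured 5 and 6 apart. The means were 70.1 ± 2.17 CPM (SD, n = 6) and 32.7 ± 3.98 CPM (SD, n = 3), a ratio of 0.466, with a log2 fold change of -1.10 (SE 0.12). Bcl2, the founding member, had levels of 15.2 to 28.0 CPM in uninjured samples, with a median of 18.8 CPM, and 27.0, 31.0 and 21.2 CPM in injured samples. Injured 1 and injured 3/4 lay among the uninjured samples and injured 2 above them (log2 fold change 0.38, SE 0.20). The change of Bcl2 was 0.09 with injured 1 and 2 left out and 0.06 where Malat1 took 3 to 5% of UMIs. Mcl1, a short-lived protein that binds Bak and Bim, had levels of 21.0 to 35.9 CPM in uninjured samples, with a median of 24.8 CPM, and 32.9, 32.1 and 34.1 CPM in injured samples. Uninjured 2, at 35.9 CPM, lay above all 3 injured samples, and the other 5 below them (log2 fold change 0.35, SE 0.16), and where Malat1 took 3 to 5% of UMIs the change was 0.11.

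Of the 10 members, 3 were higher in every injured sample than in any uninjured sample, 1 was lower, and 6 overlapped. Their median log2 fold change was 0.25, beside -0.03 over all 14234 genes tested. Of all genes tested, 21.9% were higher and 21.1% lower without overlap. By the edgeR quasi-likelihood test at an adjusted p of 0.05, 44.0% of all genes were past the threshold, 21.3% higher and 22.7% lower in injured samples. Since the members were selected with these levels known, nothing is read from their count against these shares.

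The promoters of Hrk and Bcl2l11 are shown because the levels of both genes were low in all uninjured and high in all injured samples. Each line runs from 250 bases before to 50 bases after the start of the canonical transcript, 5′ to 3′, and capitals mark a match to a searched motif. The Hrk window lies at chr5:118307528-118307827 and the Bcl2l11 window at chr2:127967708-127968007, both on the forward strand of GRCm39. The annotated Hrk gene begins upstream of its window, at chr5:118302713, and only the window at the canonical start was searched.

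Hrk promoter: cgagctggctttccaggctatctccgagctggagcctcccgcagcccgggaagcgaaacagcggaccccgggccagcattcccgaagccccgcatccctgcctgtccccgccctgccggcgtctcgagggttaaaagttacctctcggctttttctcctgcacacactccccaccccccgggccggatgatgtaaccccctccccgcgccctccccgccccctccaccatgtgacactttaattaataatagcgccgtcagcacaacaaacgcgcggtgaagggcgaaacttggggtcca
Bcl2l11 promoter: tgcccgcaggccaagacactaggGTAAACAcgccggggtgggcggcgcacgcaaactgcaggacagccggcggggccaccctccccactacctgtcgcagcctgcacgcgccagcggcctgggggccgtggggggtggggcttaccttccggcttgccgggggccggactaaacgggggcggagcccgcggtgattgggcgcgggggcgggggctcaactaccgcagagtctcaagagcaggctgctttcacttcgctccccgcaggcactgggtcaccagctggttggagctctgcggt

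The Hrk window held 64% G and C with 25 CpG pairs, and that of Bcl2l11 71% with 27. The motifs searched on both strands were TGACGTCA and TGANTCA, the forms bound by Jun with its partners, TGATGNAAT, bound by Atf4 with Ddit3 and related factors, and GTAAACA, bound by Foxo factors. They occurred in 2.45%, 7.11%, 0.903% and 3.15% of 21593 promoters of the same length. GTAAACA was found in 2 of the 10 members, in Bcl2l11 at -227 and, on the other strand, in Bak1 at -69. The other 3 motifs were not in any of the 10 windows, which says only that these letters were not there.

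The balance of the family was taken as the summed UMIs of the 7 death-promoting members over those of the 3 protective members in each sample. This ratio needs no scaling between libraries, and it weighs each gene by its UMIs, so the genes with most UMIs carry it. Its log2 value was -0.15 to 1.13 in uninjured samples, with a median of 0.24, and 2.43, 2.58 and 2.96 in injured samples. The means were 0.41 ± 0.58 (SD, n = 6) and 2.66 ± 0.27 (SD, n = 3), a difference of 2.25. All injured samples lay above all uninjured samples, among which uninjured 5 and 6 were highest at 1.11 and 1.13. As a plain ratio, death-promoting UMIs outnumbered protective UMIs 5.39, 5.98 and 7.77 to 1 in injured samples, against 0.904 to 2.19 to 1 in uninjured samples.

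Both sides of the ratio moved, by unequal amounts. Summed death-promoting levels were 110 to 248 CPM in uninjured samples, with a median of 134 CPM, and 524, 561 and 663 CPM in injured samples. Summed protective levels were 106 to 126 CPM in uninjured samples, with a median of 117 CPM, and 97.2, 93.9 and 85.4 CPM in injured samples. The groups did not overlap on either side, and the difference in CPM was larger on the death-promoting side.

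**Figure D2:**
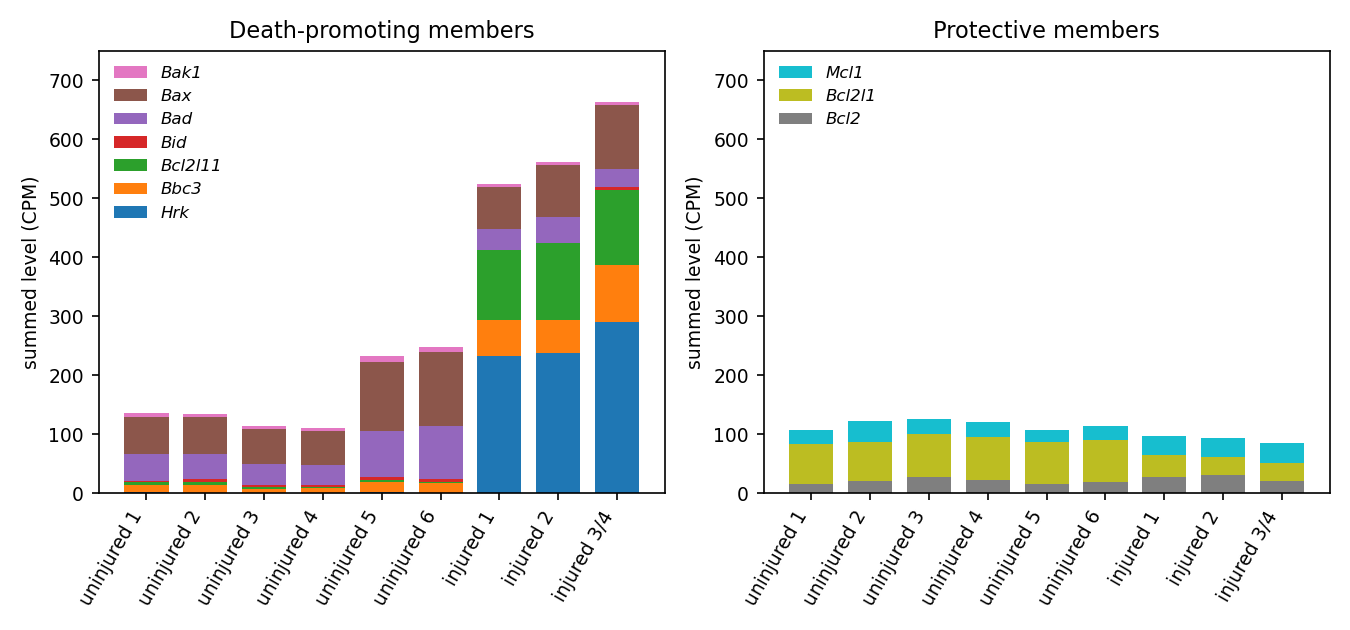
Summed levels (CPM) of the 7 death-promoting members (left) and the 3 protective members (right) in each of the 6 uninjured and 3 injured samples, stacked by gene on the same scale. The death-promoting sum is 524 to 663 CPM in injured samples, mostly Hrk, Bcl2l11 and Bax, and the protective sum stays between 85.4 and 126 CPM in all samples.

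The make-up of the death-promoting sum changed from Bax and Bad to Hrk and Bcl2l11. BH3-only members already made up 43.1% to 50% of death-promoting UMIs in uninjured samples, mostly as Bad, and made up 85.3%, 83.3% and 82.8% in injured samples. Bad went from 30.6% to 36.7% in uninjured samples to 6.61%, 7.65% and 4.74% in injured samples. Bax made up 46.0% to 52.5% of death-promoting UMIs in uninjured samples and 13.8%, 15.7% and 16.3% in injured samples. Hrk made up at most 0.998% in uninjured samples and 44.4%, 42.4% and 43.7% in injured samples. Hrk, Bbc3 and Bcl2l11 together made up 7.59% to 13.9% in uninjured samples and 78.5%, 75.5% and 77.5% in injured samples. On the protective side, Bcl2l1 went from 54.5% to 65.6% of UMIs in uninjured samples to 38.4%, 32.8% and 35.2% in injured samples.

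The shift in balance was not carried by Hrk alone. Without Hrk in the sum the log2 ratio was -0.15 to 1.13 in uninjured samples and 1.59, 1.78 and 2.13 in injured samples, a difference in means of 1.43. BH3-only members alone over protective members gave -1.35 to 0.02 against 2.20, 2.32 and 2.69, a difference of 3.11. Effectors alone over protective members gave -0.96 to 0.24 against -0.34, -0.01 and 0.42, so these ranges overlapped. The ratio of BH3-only to protective members thus separated the conditions, while that of effectors to protective members, with a difference in means of 0.51, did not.

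Detection over cells depends on depth, so each cell was thinned at random to 8000 UMIs and shallower cells were left out, which kept 1654 uninjured and 1376 injured cells. Hrk had a UMI in at most 2.11% of thinned cells in uninjured samples, with a median of 0.805%. In injured samples it had one in 73.2% (exact 95% interval 67.9% to 78.1%), 71.3% (65.3% to 76.8%) and 76.9% of thinned cells. Before thinning, these shares were 0 to 4.08% and 87.0%, 83.5% and 88.4%. Uninjured 2 had no Hrk UMI in 103 cells and uninjured 6 none in 201 cells, which by counting alone allows a Hrk UMI in up to 2.91% and 1.49% of cells. This sets no limit on cells whose Hrk RNA was not captured. Intervals and floors cover counting error only. All cells in the files are labelled as RGCs, so no other labelled cell type gives a share of cells that free RNA alone would leave.

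Hrk UMIs were spread over most injured cells but unevenly. The median thinned cell held 2 Hrk UMIs in each injured sample, and at least 2 UMIs were present in 50.7%, 51.8% and 55.5% of cells. The variance over the mean was 2.23, 2.14 and 2.31, where random counting from equal cells would give 1. No Hrk UMI was found in 26.8%, 28.7% and 23.1% of cells, against 11.7%, 11.7% and 8.32% for equal cells at the same mean. The 10% of cells with most Hrk UMIs held 32.5%, 32.0% and 30.4% of them. By these counts, Hrk UMIs were neither confined to a small set of cells nor equal among cells, and the 3 injured samples were alike in this. How many cells held only free Hrk RNA is not known.

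**Figure D3:**
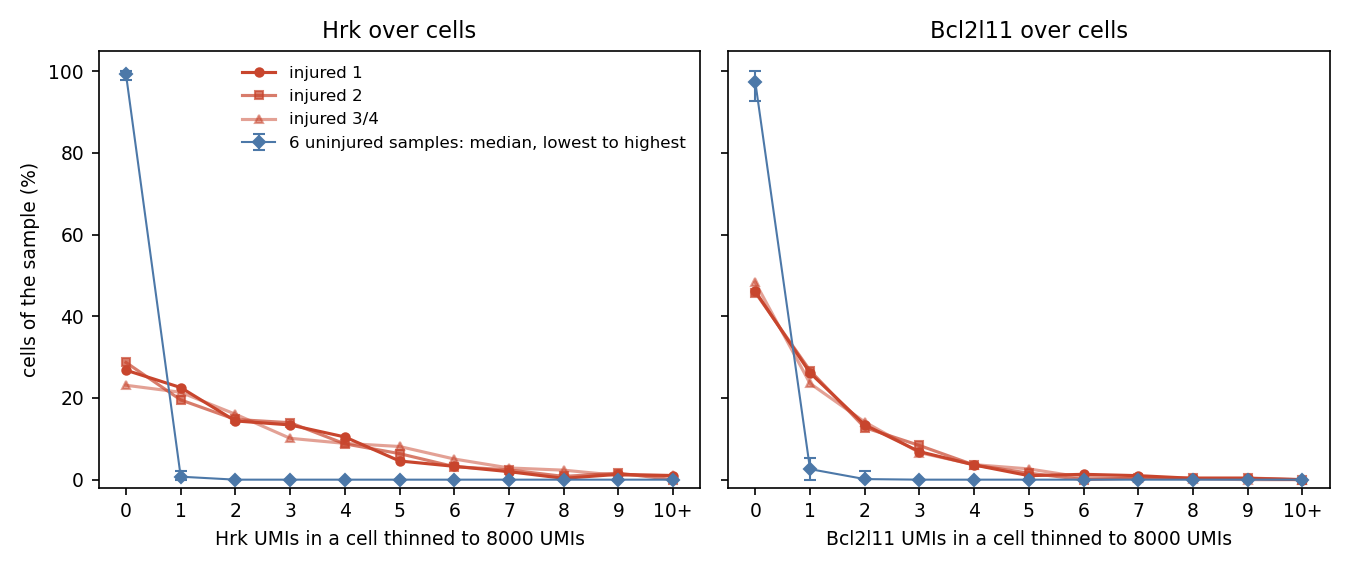
Share of cells (%) with each number of Hrk (left) and Bcl2l11 (right) UMIs after thinning to 8000 UMIs, with a line for each injured sample and, for 6 uninjured samples, the median with bars from lowest to highest. Hrk is absent from 23.1% to 28.7% of injured cells and its counts tail off to 10 or more, whereas nearly all uninjured cells hold none.

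Bcl2l11 followed a like course with a larger empty share. It had a UMI in 0 to 7.37% of thinned uninjured cells and in 53.9%, 54.2% and 51.7% of thinned injured cells. Its variance over the mean was 2.11, 1.92 and 1.85 in injured samples, and the 10% of cells with most held 41.9%, 40.2% and 40.5% of its UMIs. Bbc3 had a UMI in 5.90% to 16.7% of uninjured and in 36.3%, 39.8% and 48.2% of injured cells. Its variance over the mean was 1.55, 1.10 and 1.38 at means of 0.529, 0.538 and 0.796 UMIs. The measure nears 1 as the mean falls, so it does not show whether Bbc3 was more even than Hrk, whose means were 2.14, 2.14 and 2.50 UMIs. Bcl2l1 had a UMI in 32.6% to 49.4% of uninjured and in 26.5%, 20.3% and 19.9% of injured cells, without overlap, and its variance over the mean was 1.06, 1.02 and 1.19.

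The members that overlapped in level also overlapped in detection. Bax had a UMI in 38.4% to 66.5% of uninjured and in 41.5%, 47.8% and 52.8% of injured cells. Mcl1 had a UMI in 15.0% to 31.4% of uninjured and in 22.9%, 23.1% and 22.3% of injured cells. Bad had a UMI in 18.9% to 51.0% of uninjured and in 20.6%, 23.1% and 20.9% of injured cells. For Bid the shares were 1.05% to 4.00% and 0, 1.20% and 2.84%, and for Bak1 3.33% to 9.49% and 2.61%, 2.39% and 4.77%. Both were too sparse for a statement on spread.

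Bcl2 was sparse and, in injured and some uninjured samples, less even than counting alone would give. It had a UMI in 11.8% to 17.8% of uninjured and in 13.4%, 14.3% and 10.8% of injured cells. Its variance over the mean was 0.883 to 1.49 in uninjured and 1.52, 1.96 and 2.25 in injured samples. No Bcl2 UMI was found in 86.6%, 85.7% and 89.2% of injured cells, against 83.0%, 80% and 83.6% for equal cells at the same mean. In uninjured 3, where the variance over the mean was 1.49, these shares were 82.2% and 78.3%. The cells that shared a barcode between injured 3 and 4 gave like counts in both: 54 of 421 had Bcl2 in both libraries, 41 in only 1 of them and 326 in neither (r = 0.76 over 421 barcodes before thinning, 0.64 over 334 after it).

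Those 421 barcodes served as a repeat count for the other members too. Hrk was found in both libraries for 345 barcodes, only in injured 3 for 31, only in injured 4 for 21 and in neither for 24. The correlation of Hrk UMIs between the libraries was 0.79, beside 0.73 for Bcl2l11, 0.73 for Bax, 0.61 for Bbc3 and 0.42 for Mcl1. These counts were not thinned, so they include the depth of each cell, which both libraries share. In the 334 shared barcodes thinned in both libraries, added after these values were seen, the correlation was 0.66 for Hrk, 0.60 for Bcl2l11, 0.50 for Bbc3, 0.32 for Bax and 0.14 for Mcl1. Thinning also adds counting noise, more so for genes with few UMIs. Part of the differences among cells in Hrk was thus repeated at equal depth. The repeat shares the cells and their captured RNA, so it speaks of counting and not of the animals. Whether injured 3 and 4 are separate libraries or sequencing runs of the same library is not known. In the latter case both would count the same molecules, and the correlations would not be those of a repeat count.

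The 3 BH3-only genes with higher levels occurred in the same cells more often than the product of their shares. All 3 had a UMI in 19.0%, 21.5%, 30.4% and 25.9% of thinned cells of injured 1 to 4, where the product of the shares was 14.3%, 15.4%, 21.6% and 16.8%. None of the 3 had a UMI in 16.0%, 15.9%, 10.7% and 16.2% of cells, against 7.87%, 7.91%, 4.70% and 6.99% for the product. In uninjured libraries no cell held all 3, and 77.9% to 91.9% held none. Cells thus ranged from those with all 3 genes to those with none.

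Bcl2l11 was detected in 62.5%, 63.7% and 60.5% of injured cells with a Hrk UMI and in 30.5%, 30.6% and 22.4% of those without (r = 0.34, 0.31 and 0.41 over the thinned cells of each sample). Bbc3 was detected in 41.5%, 46.9% and 53.2% of cells with Hrk and in 22.0%, 22.2% and 32.0% of those without, and its correlations of 0.21, 0.22 and 0.26 were weak. For Bcl2l1 the shares were 24.1%, 19.6% and 17.1% with Hrk and 32.9%, 22.2% and 28.9% without, lower with Hrk in 3 of 3 samples. Its correlation over cells was -0.04 to -0.06, which is no finding. Bax was detected in 42.9%, 48.0% and 55.4% of cells with Hrk and in 37.8%, 47.2% and 44.4% of those without, a small difference beside that of Bcl2l11. No doublet caller was run, so cells that hold RNA of more than 1 cell may be among those with all genes.

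**Figure D4:**
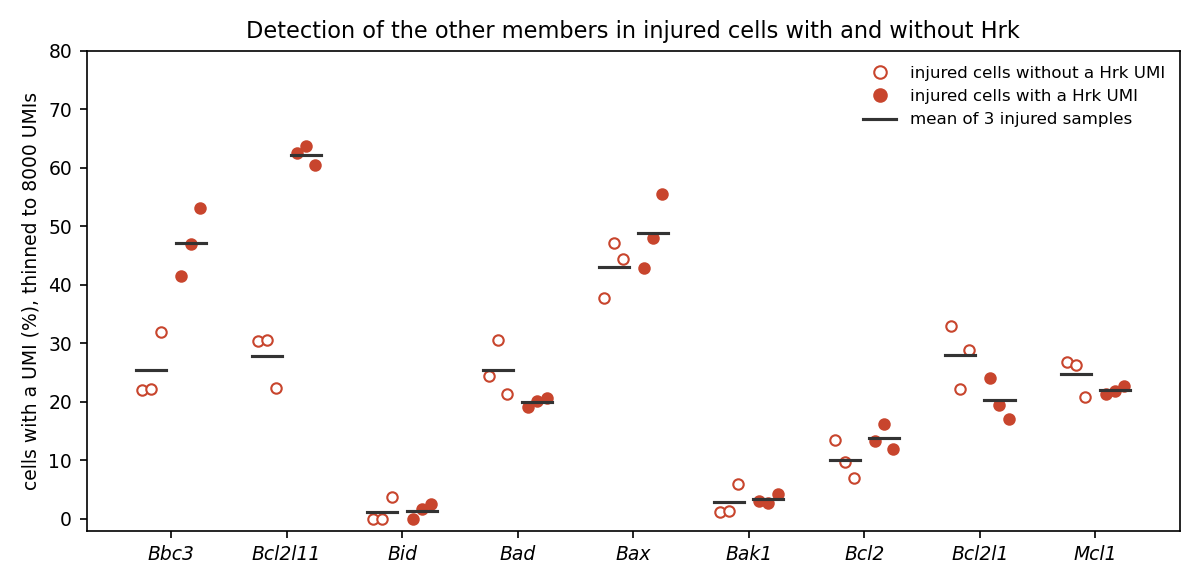
Share of thinned injured cells (%) with a UMI of each other member, for cells without a Hrk UMI (open points) and with one (filled points), 1 point per injured sample and the mean as a line. Bcl2l11 is detected in 60.5% to 63.7% of cells with Hrk against 22.4% to 30.6% without, and Bbc3 is likewise higher in all 3 samples.

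Counted cell by cell, most injured cells held more death-promoting than protective UMIs. Death-promoting UMIs outnumbered protective ones in 32.9% to 61.0% of thinned uninjured cells per sample, with a median of 45.3%, and in 83.7%, 84.9% and 89.7% of injured cells. Protective UMIs outnumbered death-promoting ones in 16.0% to 37.2% of uninjured and in 8.17%, 4.78% and 5.07% of injured cells. The groups did not overlap in either share. Without Hrk, the share with more death-promoting UMIs was 32.8% to 61.0% in uninjured and 69.3%, 74.5% and 76.2% in injured cells, still without overlap.

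The mean number of death-promoting UMIs per thinned cell was 0.919 to 1.97 in uninjured and 4.65, 4.74 and 5.55 in injured samples. For protective UMIs it was 0.726 to 1.12 and 0.758, 0.701 and 0.675, so in thinned cells these ranges overlapped at injured 1. The variance over the mean of death-promoting UMIs was 1.00 to 1.26 in uninjured and 2.58, 2.26 and 2.67 in injured samples. Injured cells thus differed among themselves more than counting alone would give, whereas the lower values in uninjured cells, at lower means, do not show that these cells were more alike. No UMI of any of the 10 members was found in 6.50% to 16.3% of uninjured and in 2.61%, 3.59% and 2.26% of injured cells.

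Hrk varied with depth, mitochondrial share and Malat1 share over injured cells. In thinned cells of injured 1 to 4, Hrk correlated with the cell's UMIs before thinning at -0.36, -0.31, -0.35 and -0.33 and with its mitochondrial share at -0.31, -0.34, -0.22 and -0.26. It correlated with the share of Malat1 at 0.34, 0.51, 0.36 and 0.43. Cells were sorted by Malat1 share into 4 equal sets per library. In the lowest set (median 2.82%, 2.31% and 3.53% of UMIs), Hrk had a UMI in 48.1%, 36.5% and 57.5% of cells. In the highest set (median 12.6%, 10.7% and 13.1%), it had one in 92.2%, 93.7% and 89.5%. Bcl2l11 went from 27.3%, 31.7% and 30.3% in the lowest set to 68.8%, 68.3% and 64.2% in the highest. Bcl2l1 went the other way, from 29.9%, 28.6% and 23.3% to 20.8%, 11.1% and 17.3%. Bax stayed level, at 44.2%, 52.4% and 51.8% in the lowest set and 41.6%, 47.6% and 51.4% in the highest.

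The difference between conditions was present within cells of like Malat1 share. Where Malat1 took 3 to 5% of a cell's UMIs, Hrk was detected before thinning in 81.5%, 69.4%, 75.6% and 77.3% of cells in injured 1 to 4. It was found in none of 35, 41 and 8 such cells of uninjured 1, 2 and 6, in 3.17% of 126 in uninjured 3, in 3.96% of 278 in uninjured 4 and in 1 of 7 in uninjured 5. The log2 fold change of Hrk in these cells was 6.93, that of Bcl2l11 4.63 and that of Bcl2l1 -0.84, each smaller in size than over all cells, while that of Bbc3 was 2.64, near its value over all cells. The smaller value for Hrk includes the 1 cell of uninjured 5, whose 4 UMIs put that library at 30.6 CPM by library total, against 0 to 1.22 CPM in the other 5. In the injured libraries Hrk was at 170, 134, 147 and 136 CPM in these cells. What part Malat1 share, depth or cell integrity has in the spread of Hrk was not tested.

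Cells with and without mCherry in injured 3 and 4 differed in Bax more than in Hrk. Bax was at 111 and 123 CPM in cells with mCherry and at 33.8 and 33.2 CPM in the 74 cells of each library without it. Hrk was at 288 and 274 CPM with mCherry and at 276 and 354 CPM without it. Injured 1 and 2 did not show this split in Bax. There Bax was at 88.1 and 80.1 CPM in the 27 and 41 cells with mCherry and at 67.6 and 84.3 CPM in cells without it. Hrk was at 241 and 255 CPM with mCherry and at 222 and 220 CPM without it. Hrk was thus high in all 4 injured libraries in cells with and without an mCherry UMI. After thinning it was detected in 69.2%, 67.6%, 79.8% and 76.0% of cells with mCherry in injured 1 to 4. In cells without it the shares were 73.6%, 71.9%, 74.5% and 64.3%. A cell without an mCherry UMI is not shown to lack the reporter. The log2 fold change of Bcl2l1 without cells with mCherry was -0.93. What sets the cells with mCherry apart was not tested.

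Among 15 other genes of the Bcl2 family, 7 passed the filter on low counts, and by edgeR 3 of the 7 rose, 3 fell and 1 was not past the threshold. Their median log2 fold change was -0.35, beside -0.03 over all genes. This list and those below were chosen with earlier results of these data known. Their p-values and shares past the threshold describe these samples and are not independent support. Bmf, Bik, Bcl2l10, Bcl2a1a, Bcl2a1b, Bcl2a1d, Bcl2l12 and Bcl2l14 were too low to test. Pmaip1, which encodes Noxa, a BH3-only protein that binds Mcl1, had no UMI in 1683 uninjured cells and 20.8, 23.8 and 22.8 CPM in injured samples. Against the floor of 3 counts over the uninjured group it was at least 405-fold higher, in 3 of 3 samples. Pmaip1 passed the filter on low counts only through the injured samples. Its edgeR call, counted among the 3 rises above, could therefore only be a rise and is not read as support. The 566 UMIs of Pmaip1 lay in 281 of 1609 injured cells, with up to 17 in a cell. After thinning, Pmaip1 was in 6.86%, 11.2% and 12.2% of injured cells. The other 93.1%, 88.8% and 87.8% held none, against 90.4%, 87.0% and 84.2% for equal cells at the same mean, so its low level leaves most cells without a UMI in any case. In injured 2 its share was 7.26% in cells with Hrk and 20.8% in cells without, a split that injured 1 and 3/4 did not show.

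Bok, an effector-like member, fell from 17.9 to 37.4 CPM in uninjured samples to 5.25, 6.06 and 7.52 CPM (log2 fold change -2.04, SE 0.26, edgeR adjusted p = 6.14e-05, lower in 3 of 3). Bnip3, which marks mitochondria for removal, fell from 231 to 455 CPM to 79.8, 84.9 and 93.5 CPM (log2 fold change -1.86, edgeR adjusted p = 0.000116, lower in 3 of 3). Its relative Bnip3l was at 176 to 283 CPM and 166, 167 and 166 CPM (log2 fold change -0.35, edgeR adjusted p = 0.138), lower in 3 of 3 samples but not past the threshold. Bcl2l2, which encodes the protective Bcl-w, fell from 26.6 to 40.6 CPM to 10.2, 9.88 and 25.0 CPM (log2 fold change -1.07, edgeR adjusted p = 0.0111, lower in 3 of 3). Injured 3/4 lay near the uninjured samples, and without injured 1 or injured 2 the edgeR adjusted p of Bcl2l2 was 0.0628 or 0.0598, in a range of 0.000328 to 0.439 over 28 alternatives. Its log2 fold change was -0.35 with injured 1 and 2 left out, -1.65 with injured 3 and 4 left out and -0.67 in libraries 1 to 4.

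Bcl2l13, a mitochondrial member, rose from 13.2 to 23.3 CPM to 31.9, 28.1 and 26.0 CPM (log2 fold change 0.63, edgeR adjusted p = 0.0176, higher in 3 of 3). Without injured 1 its edgeR adjusted p was 0.0812, in a range of 0.00612 to 0.288 over 28 alternatives. Bcl2l15 rose from 0.674 to 2.86 CPM to 3.50, 3.14 and 4.30 CPM (log2 fold change 0.93, edgeR adjusted p = 0.0412, higher in 3 of 3). This call was weak: it was lost in 15 of 25 alternatives, among them those without uninjured 2, 5 or 6 (edgeR adjusted p = 0.0610, 0.0659 and 0.0585) or injured 1, 2 or 4 (0.0911, 0.0656 and 0.0633). The adjusted p of Bcl2l15 ranged from 0.0143 to 0.160 over these alternatives, and its log2 fold change from 0.81 to 1.18, about as large as in the main fit.

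Steps after the mitochondrial pore were described with 18 genes of the apoptosome, caspases and their inhibitors, of which 16 were tested, 4 rose and 2 fell, with a median log2 fold change of 0.02. Apaf1, the scaffold of the apoptosome, rose from 10.3 to 21.3 CPM to 37.1, 30.5 and 41.9 CPM (log2 fold change 1.33, edgeR adjusted p = 0.000194, higher in 3 of 3). Casp2 rose from 4.60 to 6.34 CPM to 11.7, 8.76 and 9.40 CPM (log2 fold change 0.83, edgeR adjusted p = 0.00291, higher in 3 of 3). The call of Casp2 was lost in thinned cells (log2 fold change 0.67, edgeR adjusted p = 0.0780) and with injured 1 and 2 left out (0.75, 0.0907).

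Both falls in this list lost their call when some libraries were left out in turn. Endog, which encodes a mitochondrial nuclease, fell from 19.5 to 46.4 CPM to 11.0, 16.4 and 17.5 CPM (log2 fold change -0.97, edgeR adjusted p = 0.0253, lower in 3 of 3). Without injured 1 or injured 2 its edgeR adjusted p was 0.119 or 0.0618, in a range of 0.00828 to 0.727, and with 1 library left out its log2 fold change was -1.03 to -0.79. In cells with 3 to 5% Malat1 the change of Endog was -0.20, and in libraries 1 to 4 -0.52. Xiap, which encodes a caspase inhibitor, fell from 85.5 to 98.7 CPM to 70.2, 72.1 and 74.1 CPM (log2 fold change -0.34, edgeR adjusted p = 0.0220, lower in 3 of 3). Without uninjured 2, 3 or 4 or injured 1 or 2 its edgeR adjusted p was 0.0598, 0.0546, 0.0563, 0.0925 or 0.0752, in a range of 0.000638 to 0.337 over 28 alternatives, and with 1 library left out its log2 fold change was -0.36 to -0.30. Without cells with mCherry the change of Xiap was -0.19 (edgeR adjusted p = 0.337).

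All 10 genes of channel and membrane partners were tested, and 2 rose and 2 fell, with a median of 0.05. Ywhag, a 14-3-3 protein, rose from 281 to 438 CPM to 623, 569 and 634 CPM (log2 fold change 0.79, edgeR adjusted p = 0.00233, higher in 3 of 3). The call of Ywhag was lost with similar libraries summed (log2 fold change 0.80, edgeR adjusted p = 0.0522) and with injured 1 and 2 left out (0.86, 0.0586), where the change was no smaller. Mtch2, a membrane receptor for Bid, rose from 53.2 to 80.4 CPM to 86.8, 104 and 92.7 CPM (log2 fold change 0.55, edgeR adjusted p = 0.0130, higher in 3 of 3). The call of Mtch2 was lost without injured 2 (log2 fold change 0.48, edgeR adjusted p = 0.0668), without cells with mCherry (0.46, 0.123) and with similar libraries summed (0.52, 0.114). With injured 1 and 2 left out the change of Mtch2 was 0.53. Vdac1, an outer membrane channel, fell from 608 to 1173 CPM to 378, 378 and 454 CPM (log2 fold change -1.01, edgeR adjusted p = 0.00793, lower in 3 of 3). The call of Vdac1 was lost with similar libraries summed (log2 fold change -0.98, edgeR adjusted p = 0.0664) and with injured 1 and 2 left out (-0.83, 0.245), and its change was -0.64 in libraries 1 to 4. Ywhab, another 14-3-3 protein, fell from 647 to 810 CPM to 524, 533 and 513 CPM (log2 fold change -0.49, edgeR adjusted p = 0.0155, lower in 3 of 3). Without injured 1 or injured 2 the edgeR adjusted p of Ywhab was 0.0620 or 0.0549, and with similar libraries summed 0.160. In these fits the log2 fold change of Ywhab was -0.48, -0.49 and -0.51, about as large as its main value. It was -0.35 in cells with 3 to 5% Malat1 (edgeR adjusted p = 0.157) and -0.72 without cells with mCherry (0.0563).

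Of 7 genes that control turnover of the family's proteins, all tested, 1 rose and 0 fell, with a median of 0.15. It was Marchf5, a ubiquitin ligase of the outer membrane, which rose from 58.7 to 102 CPM to 109, 121 and 128 CPM (log2 fold change 0.71, edgeR adjusted p = 0.0115, higher in 3 of 3). Its call was lost without cells with mCherry (log2 fold change 0.47, edgeR adjusted p = 0.180), with similar libraries summed (0.71, 0.0764) and with injured 1 and 2 left out (0.81, 0.111). Of 10 genes on the death receptor route to Bid, 5 were tested, 3 rose and 0 fell, with a median of 0.95, and Fas, Tnfrsf1a, Tnfrsf10b, Ngfr and Casp8 were too low to test. Cflar, which blocks caspase 8, rose from 2.24 to 4.77 CPM to 13.3, 14.8 and 12.9 CPM (log2 fold change 1.78, edgeR adjusted p = 3.59e-05, higher in 3 of 3). Ripk1, a kinase of the receptor complex, rose from 3.17 to 8.42 CPM to 10.5, 11.2 and 9.94 CPM (log2 fold change 0.95, edgeR adjusted p = 0.00717, higher in 3 of 3). The call of Ripk1 was lost with similar libraries summed (log2 fold change 0.92, edgeR adjusted p = 0.0527) and with injured 1 and 2 left out (0.87, 0.159). Fadd, an adaptor, was at 0.680 to 2.57 CPM and 3.85, 3.82 and 2.42 CPM (log2 fold change 1.41, edgeR adjusted p = 0.0119), above every uninjured sample in 2 of 3. Without injured 1 or injured 2 the edgeR adjusted p of Fadd was 0.0615 or 0.0506, and with similar libraries summed 0.0747. In these fits the log2 fold change of Fadd was 1.29, 1.31 and 1.26, and with injured 1 and 2 left out it was 0.94.

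Of 15 regulators of BH3-only transcription, 13 were tested, 6 rose and 4 fell, with a median of 0.27. Ddit3, a stress factor that induces Bim, rose from 42.3 to 48.1 CPM to 562, 588 and 518 CPM (log2 fold change 3.62, edgeR adjusted p = 2.39e-09, higher in 3 of 3). Jun, which acts upstream of Hrk and Bim in neurons, rose from 43.8 to 93.9 CPM to 544, 532 and 455 CPM (log2 fold change 2.99, edgeR adjusted p = 1.78e-06, higher in 3 of 3). Foxo1 rose from 0.906 to 3.04 CPM to 11.6, 14.4 and 15.3 CPM (log2 fold change 2.66, edgeR adjusted p = 1.41e-05, higher in 3 of 3). Atf4, the partner of Ddit3, rose from 56.6 to 101 CPM to 307, 291 and 355 CPM (log2 fold change 2.12, edgeR adjusted p = 8.89e-06, higher in 3 of 3).

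The 4 genes of that list that fell encode kinases. Of its other kinases, Mapk8 rose and Map2k4 and Map3k12 were not past the threshold. Mapk10 fell from 304 to 404 CPM to 201, 198 and 160 CPM (log2 fold change -0.90, edgeR adjusted p = 0.000595, lower in 3 of 3), a call lost without cells with mCherry (-0.50, edgeR adjusted p = 0.0878). In cells with 3 to 5% Malat1 the change of Mapk10 was -0.54. Mapk9 fell from 95.4 to 112 CPM to 70.2, 64.0 and 65.0 CPM (log2 fold change -0.66, edgeR adjusted p = 0.000468, lower in 3 of 3). Map2k7 was at 22.9 to 38.1 CPM and 21.7, 16.4 and 23.5 CPM (log2 fold change -0.68, edgeR adjusted p = 0.00857), below every uninjured sample in 2 of 3. Without injured 2 its edgeR adjusted p was 0.0530, in a range of 0.00172 to 0.364, the latter in cells with 3 to 5% Malat1, where its log2 fold change was -0.29. Map3k13 fell from 37.9 to 57.6 CPM to 36.1, 31.9 and 37.6 CPM (log2 fold change -0.43, edgeR adjusted p = 0.0433, lower in 3 of 3). This call was lost in 15 of 28 alternatives, among them those without any 1 of uninjured 1, 2, 3 or 4 (edgeR adjusted p = 0.0759, 0.0654, 0.101 and 0.101) or of injured 1, 2 or 4 (0.105, 0.163 and 0.0602). With 1 library left out the log2 fold change of Map3k13 was -0.50 to -0.35, near its main value. The adjusted p of Map3k13 ranged from 0.00100 to 0.717, the latter without cells with mCherry, where its log2 fold change was -0.11.

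Over all 6 lists, 58 of 75 genes were tested, 19 rose, 11 fell and 28 were not past the threshold, with a median log2 fold change of 0.08. The share past the threshold was 51.7%, and 14.3% to 85.7% by list, beside 44.0% of all genes tested (21.3% higher and 22.7% lower). Since the lists were chosen with earlier results of these data known, nothing is read from their share against that of all genes. Birc3, Birc5, Trp73 and E2f1 were the other genes too low to test.

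**Figure D5:**
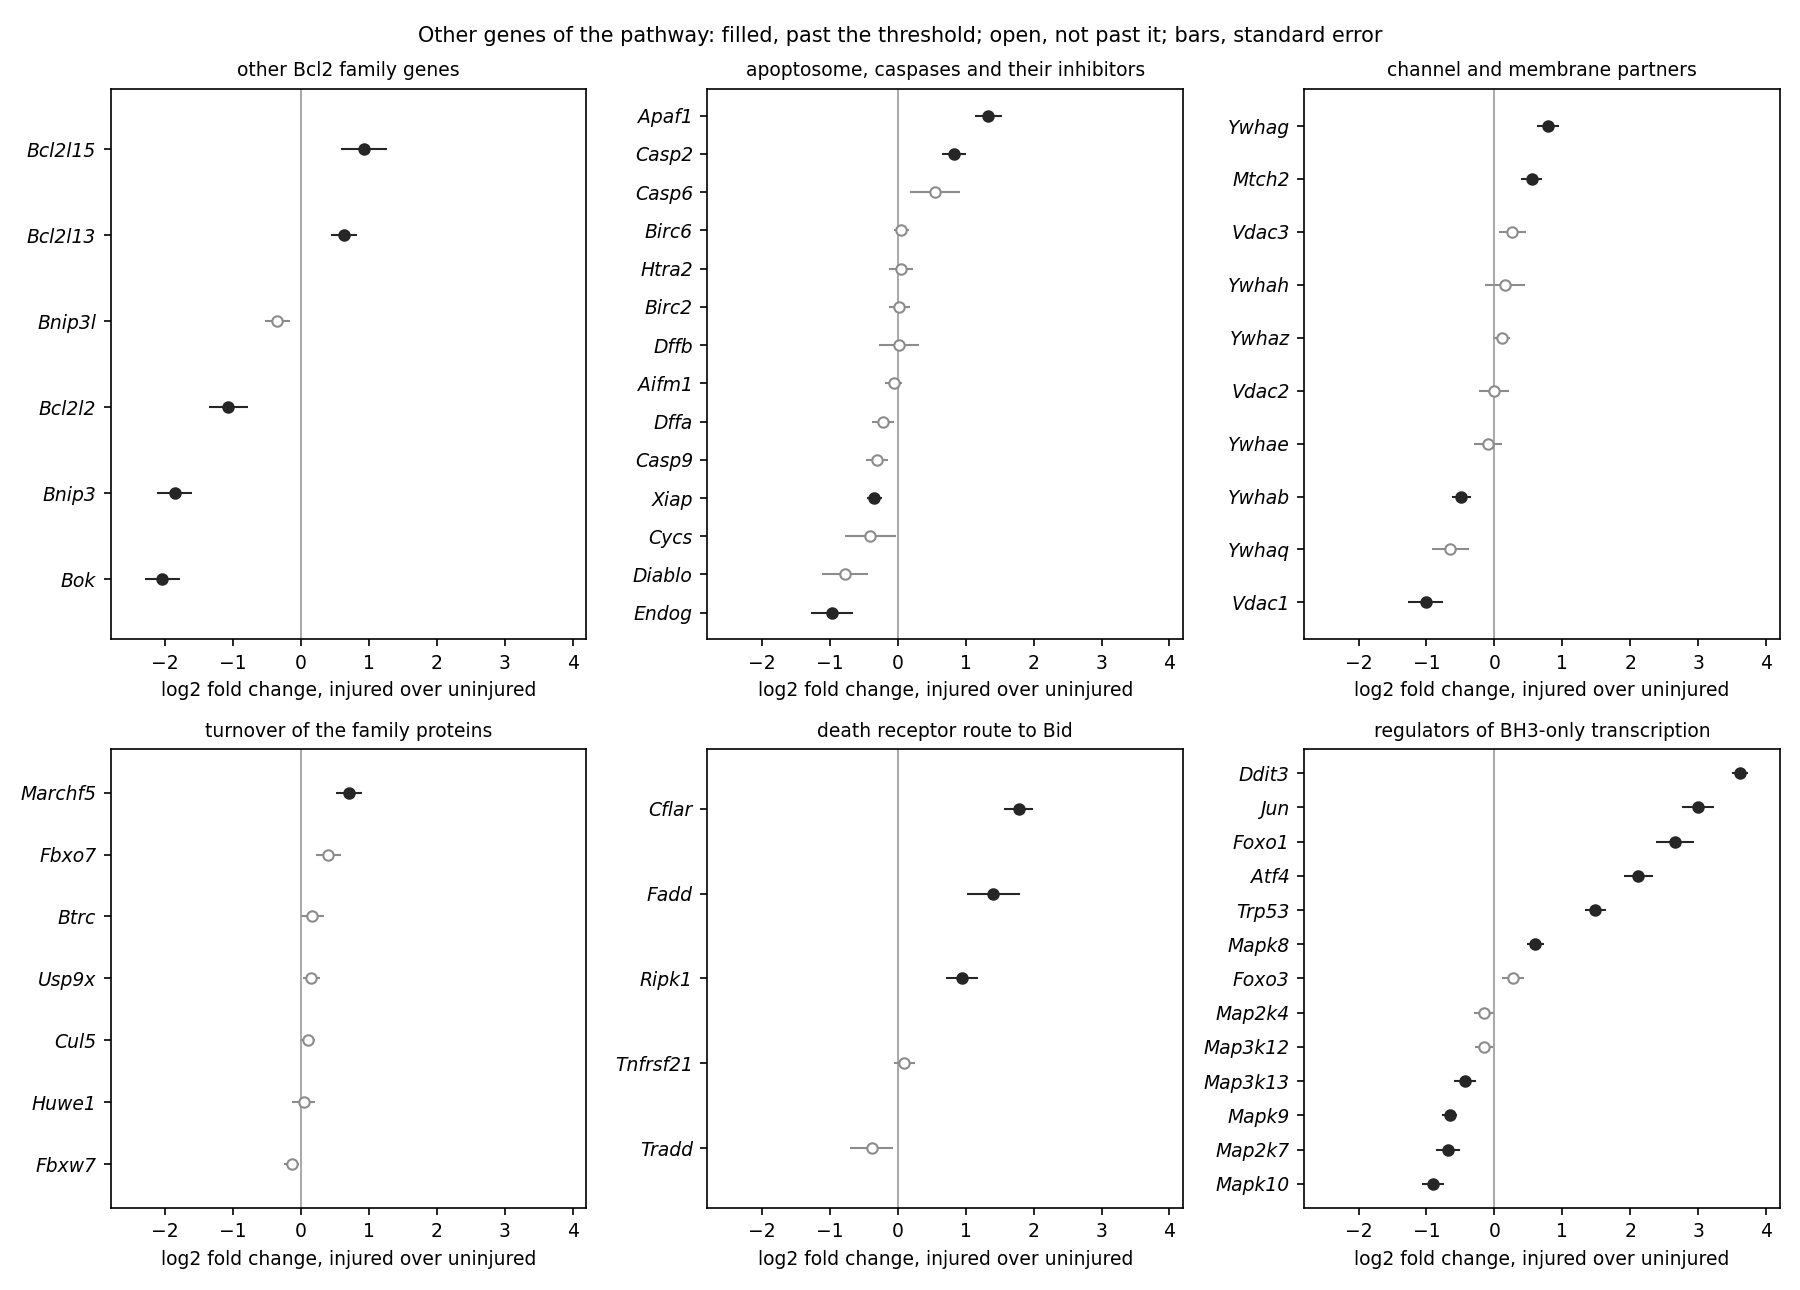
Log2 fold changes (injured over uninjured, with bars of 1 standard error) of tested genes of 6 lists, filled where past the edgeR threshold and open where not. Pmaip1 is left out because all uninjured samples are at 0, and 2 other tested genes are not drawn. The changes drawn spread to both sides of 0, from -2.04 for Bok to 3.62 for Ddit3.

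The 5 genes whose levels over the 9 samples were most like those of Hrk (log2 CPM, r of 0.99 each) were Cd109, Mtpn, Flnc, Bace2 and Mideas. Since the samples fall into 2 groups, such r values follow from any clean difference between the groups, and 1247 of 14233 genes had an r of at least 0.9. They were picked by these levels, which are given as a description with no test. Cd109 was at 0 to 0.337 CPM in uninjured and 24.2, 28.1 and 34.0 CPM in injured samples. Flnc was at 0 to 0.368 CPM and 93.3, 87.4 and 85.4 CPM. Mtpn was at 64.5 to 80.3 CPM and 185, 169 and 178 CPM. Bace2 and Mideas had log2 fold changes of 3.97 and 2.16.

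Over the 1376 thinned injured cells and 8393 genes, the genes whose UMIs went most with those of Hrk were Malat1, Zfp804b, Ldb2, Stmn4 and Epha5, with mean r within samples of 0.44, 0.43, 0.42, 0.40 and 0.40. Only 33 genes reached a mean r of 0.3, and 37 had one of -0.3 or lower, the lowest being -0.45, so genes that went against Hrk were about as many and as strongly correlated. Among those that went with it, Bcl2l11, at 0.35, ranked 17 and Bbc3, at 0.23, ranked 85. Stmn4 was higher in 3 of 3 injured samples (log2 fold change 2.50, edgeR adjusted p = 1.48e-06) and so was Malat1 (1.19, edgeR adjusted p = 0.0108). The call of Malat1 was lost with similar libraries summed (log2 fold change 1.23, edgeR adjusted p = 0.0913) and with injured 1 and 2 left out (1.36, 0.103). Zfp804b, Ldb2 and Epha5 were not past the threshold between conditions (edgeR adjusted p = 0.403, 0.0788 and 0.413). Ldb2 was past it as higher in 5 of 28 alternatives: in thinned cells (log2 fold change 1.01, edgeR adjusted p = 0.0156), without cells with mCherry (1.05, 0.0390), in cells with at least 1% ribosomal protein UMIs (0.97, 0.0329), without uninjured 1 (1.10, 0.0230) and in libraries 1 to 4 with replicate number as a block (0.41, 0.00615). The last of these counts injured 3 and 4 as separate samples, and in the same libraries without the block Ldb2 was not past the threshold. The adjusted p of Ldb2 ranged up to 0.748. None of the 5 genes that went most with Hrk over cells was among the 5 most like it over samples.

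Markers of the labelled cell type were present in both conditions. All 9 RGC markers were detected, with a summed level, per library total, of 6836 to 8311 CPM in uninjured samples and 4545, 5038, 5592 and 5877 CPM in injured 1 to 4. Nefl had most UMIs over uninjured and Tubb3 over injured samples. The sum was lower in every injured library than in any uninjured library, but its members did not all move alike. By TMM-scaled levels Tubb3 went from 374 to 781 CPM in uninjured samples to 956, 1110 and 1719 CPM in injured samples. Slc17a6 and Thy1 overlapped between conditions, and the other RGC markers were lower in every injured sample. All 8 amacrine markers were detected, at 185 to 358 CPM and 394, 343, 321 and 305 CPM. All 6 Müller glia markers were detected, at 112 to 192 CPM and 105, 120, 96.3 and 94.5 CPM. These sums hide opposite changes: Dkk3 had most UMIs over uninjured samples and was lower in every injured sample, whereas Glul had most over injured samples and was higher in each. All 7 rod markers were detected, at 4.23 to 21.1 CPM and 12.1, 34.1, 12.6 and 13.4 CPM. Sag had most UMIs over uninjured samples and Pde6b over injured samples, where it went from 0 to 0.552 CPM to 8.75, 11.9 and 10.7 CPM by TMM-scaled levels, while Sag overlapped between conditions.

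Markers of the other classes were sparse. The 6 cone markers summed to 0.856 to 2.55 CPM and 0.337, 0.638, 0.564 and 0.159 CPM, with Opn1mw most abundant in uninjured samples and Opn1sw and Gnat2 at 0 in injured libraries. The 6 bipolar markers summed to 1.06 to 7.03 CPM and 0.506, 1.06, 0.790 and 0.637 CPM, with Pcp2 most abundant in uninjured samples and at 0 in injured libraries. The 8 microglia and macrophage markers summed to 5.10 to 19.3 CPM and 12.3, 17.9, 7.11 and 6.53 CPM. P2ry12 had most UMIs over uninjured and Cx3cr1 over injured samples, with C1qa, C1qc, Tmem119 and Tyrobp at 0 in injured libraries. The 6 endothelial and astrocyte markers summed to 6.43 to 26.7 CPM and 6.74, 10.0, 7.34 and 6.21 CPM, most abundantly S100b, with Cldn5 at 0 in injured libraries. None of these 4 sums was above every uninjured sample in the injured libraries. Cells with at least 3 detected markers of another class made up 8.96% to 44.1% of uninjured libraries and 20.4%, 22.0%, 16.7% and 12.5% of injured 1 to 4. Without them the log2 fold changes of Hrk, Bcl2l11, Bbc3 and Bcl2l1 were 8.18, 5.39, 2.56 and -1.05.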

How the data were processed

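RGC libraries from uninjured (6) and injured (4) retinas were used as deposited by the authors, as raw UMI counts per gene and cell aligned to mm39. Every deposited cell met the authors' limits (at least 500 genes, at most 20% mitochondrial UMIs, at most 150000 UMIs), and no doublet caller was run. The members and gene lists were chosen with earlier results of these data known. Sums over the cells of a library were made in Python 3.11.15 (pandas 2.3.3, scipy 1.17.1, numpy 2.4.6). Because they shared barcodes, injured 3 and 4 were averaged, which gave 6 uninjured and 3 injured samples. The test was edgeR 4.0.16 under R 4.3.3 (TMM, filterByExpr, robust quasi-likelihood fit on condition alone), with p adjusted by Benjamini-Hochberg over 14234 genes and a threshold of 0.05, and it was tested on simulated data. Alternatives used DESeq2 1.42.0, limma 3.58.1, other scalings, filters, cell sets and samples. Shares of cells have exact (Clopper-Pearson) 95% intervals, and a count of 0 has a floor of 3 counts. Cells were thinned to 8000 UMIs with a fixed seed, without replacement.

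Genes were named by rule: the 10 members, other Bcl2 family genes that passed the filter, in each other list the 4 largest rises and 4 largest falls past the threshold, the 5 genes with the highest Pearson r with Hrk over 9 samples, and the 5 with the highest mean r within samples over injured cells (detected in at least 10% of cells), where it reached 0.3. Values are not given for every gene that this rule names. Positions and transcripts are from GENCODE and sequences from the GRCm39 genome. Figures were drawn with matplotlib 3.10.9.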

Additional observations from a re-analysis of the deposited data

Results flagged for a closer look

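A signal appeared in data that the comparison of conditions did not use. The reporter mCherry had UMIs in 7.99% of cells in injured 1, in 15.0% in injured 2, in 86.0% in injured 3 and in 84.3% in injured 4, and in no cell of the 6 uninjured libraries. In 62 sets of 6 uninjured values (levels, balances and shares of cells), Dixon's test found no sample far from the others, where chance gives about 1 in 20 for independent samples. The test looks for a single sample and can miss a pair, and the uninjured libraries were alike in pairs, such as uninjured 5 and 6.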

How the results depend on the processing

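The log2 fold change of Hrk was positive under all alternatives that fitted it, 6.93 to 8.63. It was smallest, 6.93, where Malat1 took 3 to 5% of a cell's UMIs, and 8.20 to 8.48 with 1 library left out. The balance difference of 2.25 became 1.43 without Hrk, 3.11 with BH3-only members alone and 0.51 with effectors alone, and 0.79 with at least 10 counts in every sample, where Hrk, Bcl2l11 and Bid drop out and could not be fitted. With 1 library left out it was 2.14 to 2.39. The mean share of thinned injured cells with Hrk, 73.8%, was 58.0% at 4000 UMIs, 86.3% without thinning, 52.6% for at least 2 UMIs, and 73.1% to 75.0% with 1 library left out.

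Of the listed genes, 30 were past the threshold, 21 to 30 with 1 library left out, 16 with similar libraries summed and 14 with injured 1 and 2 left out. Over all genes, 6256 were past it, 4961 to 6420 with 1 library left out, 3528 in cells with 3 to 5% Malat1 and 3160 with injured 1 and 2 left out. These last sets hold fewer samples or cells. Leaving out injured 1 and 2, or injured 3 and 4, was chosen after the data were seen, and the former leaves 1 injured sample, assumed to vary like the others.

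Libraries 1 to 4 with replicate number as a block gave 8.44 for Hrk, 2.68 for the balance, 35 listed genes and 7782 genes in all, against 8.34, 2.68, 36 and 8230 without the block. Both fits count injured 3 and 4 as separate samples although they share barcodes, so their gene counts rest on more samples than are distinct. The libraries were not paired by number: correlations within number were -0.056, 0.015, -0.028 and -0.052.

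Of 30 genes past the threshold that the naming rule picked other than by levels like those of Hrk, 13 stayed past it in every alternative that tested them, 17 were lost in at least 1, and none changed sign. Pmaip1, whose call could only be a rise, is among the 13 that stayed past the threshold. Zfp804b, Ldb2 and Epha5, not past it, changed sign to -0.86, -0.50 and -0.66 in cells with 3 to 5% Malat1, where Zfp804b and Epha5 were past it as lower (edgeR adjusted p = 0.0344 and 0.0103), and Zfp804b changed to -0.013 in libraries 1 to 4 without the block. Apart from the changed sets of cells, samples or genes, the cause was not tested. Of the 10 members, Bid and Bak1 had the fewest UMIs over all injured cells, 69 and 134, and Hrk over all uninjured cells, 42, which depth limits.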
